A study of Mus musculus with 16 samples.

Results

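The TRAV9 family is a group of alike variable (V) segments of the mouse T cell receptor alpha locus, and its use was measured in receptors read from 38108 single CD4+ T cells. A receptor belonged to the family when the V label of its TRA contig began with TRAV9-, TRAV9D- or TRAV9N-, in a cell with exactly 1 TRB chain and 1 or 2 TRA chains. This gave 733 TRA contigs of 40428, in 733 cells: TRAV9 was the main alpha chain (the one with the most unique molecular identifiers, UMIs) of 666 cells and the second of 67. Cells of a library that matched in beta and main alpha nucleotides were counted once, as a clonotype, which gave 559 TRAV9 clonotypes of 30489 (1.83%). Members were chosen by the V label alone, so their number describes the choice and is no finding.

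Cells with high CD44, a surface protein of T cells that have met antigen, were sorted as CD4+ T cells at day 18 from spleens of mice that all carried Vk*Myc myeloma (Vk12653 cells, injected at day 0) and all received an antibody depleting NK1.1-bearing cells (50 µg, days -2 and 5). Mice were then given an agonistic antibody to the costimulatory receptor 4-1BB (CD137) or control IgG, 20 µg on days 10, 13 and 16. The 4 groups were KO with anti-4-1BB, WT with anti-4-1BB, KO with IgG and WT with IgG, with 2 libraries each, 1 from each of 2 experiments that the labels give as batches. KO means loss of the transcription factor Eomes: Eomesfl/fl-ERT2CD4Cre mice in experiment 2, where all mice also had tamoxifen, and Eomesfl/fl-CD4Cre mice in experiment 1. WT mice were Eomes-IRES-GFP reporter mice in both, so the controls carry a reporter allele, and their labels name no Cre. Effects of the kind of knockout and of tamoxifen cannot be told apart from those of the experiment. The labels do not say how many animals a library holds, so p-values measure only the spread between these libraries, and after the sort the values describe CD44high cells only. The files hold TRA and TRB contigs and no other transcript, so the CD4 label could not be checked against markers. Of the TRAV9 cells, 0 paired a TRAV9 second chain with an invariant natural killer T alpha chain.

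An alpha chain is assembled in the thymus by joining 1 of many V segments to 1 of many J segments. Joining on the same chromosome can be repeated, each round using a V farther from the J cluster and a J farther from the V cluster, so that position along the locus shapes which V and J meet. The CDR1 and CDR2 loops are encoded by the V segment and mostly touch the MHC molecule, while CDR3 spans the junction and mostly touches the peptide. In the mouse the central part of the TRAV array exists in near copies, which the D and N of the segment names mark.

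The copies are told apart by few bases. The CDR1 of each label, as carried by most of its contigs in the deposited files, is shown because it separates some of the copies. Capitals mark the positions at which any of the 8 labels differ.
TRAV9-1: tATGGtgGATcCATttaC
TRAV9-2: tACTCtgGGAcACCttaT
TRAV9-4: tACTCtgGGAcGCCttaT
TRAV9D-1: tATGGtgGATcCATttaC
TRAV9D-4: tACTCtgCGAcACCttaT
TRAV9N-2: tCCTCtgGGAcACCttaT
TRAV9N-3: tACTTtgGGAcACCttaT
TRAV9N-4: tACTCtgCGAcACCttaT
TRAV9-1 and TRAV9D-1 shared 1 CDR1, and TRAV9D-4 and TRAV9N-4 another. Over the 270 bases of framework and CDR before CDR3, TRAV9-1 and TRAV9D-1 were 2 edits apart, so a contig that misses those bases could be given to either. TRAV9-1 stood 48 edits from TRAV9-2 and from TRAV9N-4 and 49 from TRAV9-4, whereas TRAV9-2, TRAV9-4 and TRAV9N-4 were 6 to 8 edits from each other.

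The CDR2 is the second loop that the V segment encodes, with capitals again at positions that differ among labels. For TRAV9D-4 the files list no CDR2 in any of its 8 contigs.
TRAV9-1: tactatTcGggaAacccagtggtt
TRAV9-2: tactatTcAggaGacccagtggtt
TRAV9-4: tactatTcCggaGacccagtggtt
TRAV9D-1: tactatTcGggaAacccagtggtt
TRAV9N-2: tactatTcCggaGacccagtggtt
TRAV9N-3: tactatCcAggaGacccagtggtt
TRAV9N-4: tactatTcAggaGacccagtggtt
The CDR2 of TRAV9-1 and TRAV9D-1 was again 1 sequence. TRAV9-2 and TRAV9N-4 shared a CDR2, as did TRAV9-4 and TRAV9N-2, and each of these pairs differs in CDR1. TRAV9N-4 and TRAV9D-4, which share a CDR1, could not be compared in CDR2.

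All 8 labels matched a V segment gene of RefSeq on chromosome 14 (GRCm38.p6, the build family of the submitters' notes). Of the 11 TRAV9 genes annotated there, Trav9d-2, Trav9d-3 and Trav9n-1 had no contig. TRAV9-2 (chr14:53591080-53591504) was the most used copy, with 145 clonotypes, or 25.9% of the family. TRAV9-4 (chr14:53676196-53676628), the copy nearest to the J cluster, had 118 clonotypes. TRAV9N-4 (chr14:53294596-53295030) had 107 and TRAV9-1 (chr14:53488106-53488567) had 88. TRAV9N-3 (chr14:53231668-53232102) had 60. These 5 were found in all 8 libraries. The remaining labels were rare: TRAV9D-1 (chr14:52792316-52792776) had 25 clonotypes in 7 libraries, TRAV9N-2 (chr14:53203122-53203544) had 12 in 5 libraries, and TRAV9D-4 (chr14:52983456-52983770) had 4 in 3 libraries.

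The family's share of clonotypes did not differ between treatments or genotypes beyond the spread of the libraries. In experiment 2 it was 1.89% in KO with anti-4-1BB, 1.39% in WT with anti-4-1BB, 2.68% in KO with IgG and 1.94% in WT with IgG. In experiment 1 it was 1.30%, 2.10%, 1.21% and 1.05% in the same 4 groups. The highest share, KO with IgG in experiment 2, rested on 128 clonotypes of 4773 (95% Clopper-Pearson interval 2.24% to 3.18%), and the lowest, WT with IgG in experiment 1, on 36 of 3425 (0.737% to 1.45%). Intervals cover counting error only, and PCR copies are not independent molecules.

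**Figure D1:**
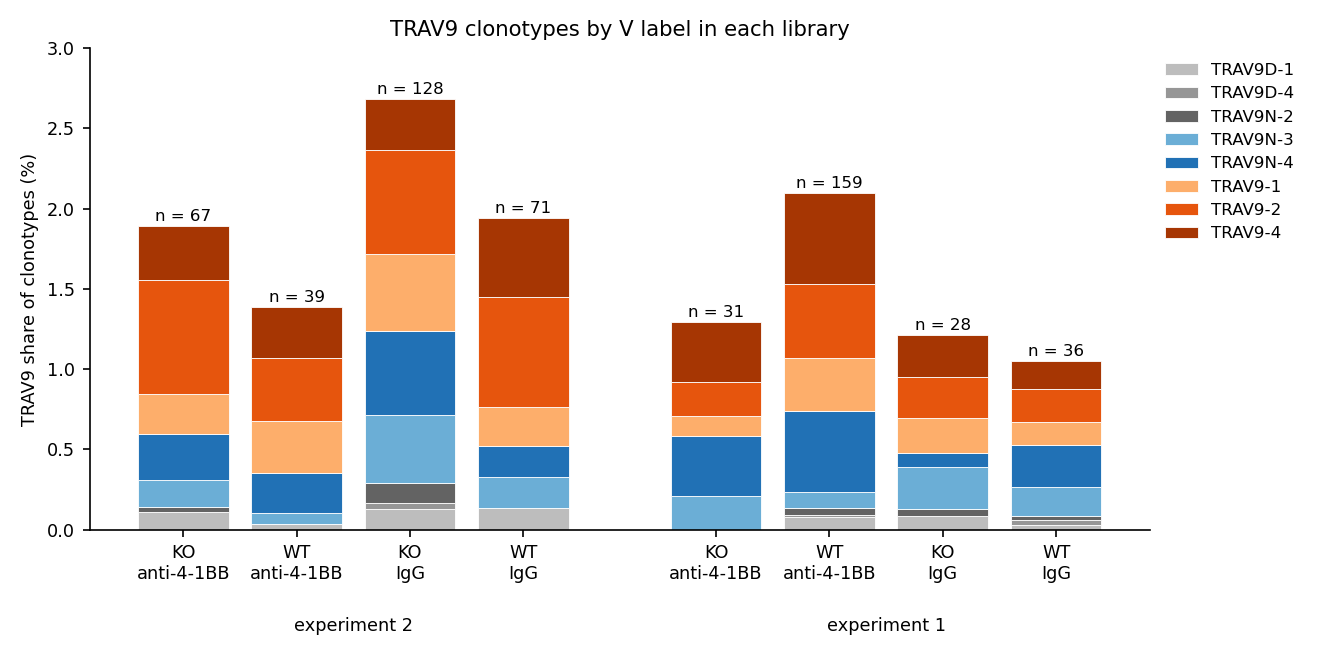
Share of all clonotypes (%) that use TRAV9 in each of the 8 libraries, with experiment 2 on the left; colours stack the 8 V labels and n is the number of TRAV9 clonotypes. The total lies between 1.05% and 2.68%, and no group stands clear of the others in both experiments.

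Anti-4-1BB libraries averaged 1.67 ± 0.388% and IgG libraries 1.72 ± 0.748% (SD, n = 4 each). Inside the 4 combinations of experiment and genotype the difference was -0.054 ± 0.820 percentage points, higher with anti-4-1BB in 2 of 4 (two-sided exact permutation test, p = 1). It was -0.789 in KO and -0.555 in WT in experiment 2, and 0.0823 in KO and 1.05 in WT in experiment 1, so both genotypes of an experiment lay on the same side. KO libraries averaged 1.77 ± 0.678% and WT libraries 1.62 ± 0.486% (SD, n = 4 each), a difference of 0.152 ± 0.678 points with KO higher in 3 of 4 pairs (exact permutation test, p = 0.75). Experiment 2 averaged 1.98 ± 0.533% and experiment 1 1.41 ± 0.466%, a difference of 0.562 ± 0.921 points, higher in 3 of 4 groups (exact permutation test, p = 0.375). With 16 arrangements none of these exact permutation tests can go below p = 0.13.

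None of the 4 copies tested passed between treatments or between genotypes. The 4 labels with enough clonotypes for the model (10 in at least 2 libraries) were TRAV9-1, TRAV9-2, TRAV9-4 and TRAV9N-4. Of these, 0 of 4 were called for anti-4-1BB against IgG and 0 of 4 for KO against WT by edgeR's quasi-likelihood test (adjusted p under 0.05 over 153 segments), in which 0.654% of all segments were called in each comparison. No copy had an unadjusted p under 0.05 in either comparison, and DESeq2 called 0 of 4 as well. The median log2 fold change of the 4 copies was 0.16 for treatment, beside -0.03 over all segments, and 0.14 for genotype, beside 0.02.

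TRAV9-2 took a larger share in experiment 2 than in experiment 1 in 3 of 4 groups, without passing the test. Its share in experiment 2 was 0.706% in KO with anti-4-1BB, 0.391% in WT with anti-4-1BB, 0.649% in KO with IgG and 0.684% in WT with IgG. In experiment 1 the same groups had 0.209%, 0.461%, 0.260% and 0.204%. The 2 experiments thus overlap only through the WT anti-4-1BB libraries. The log2 fold change of experiment 2 over 1 was 0.99 ± 0.34 (SE), with an adjusted p of 0.0946 by edgeR's quasi-likelihood test. Between experiments 0 of 4 copies were called, against 0.654% of all segments, and TRAV9-2 was the 1 copy with an unadjusted p under 0.05, by edgeR and by DESeq2. The size of this change turned on WT with anti-4-1BB, at 0.391% in experiment 2 and 0.461% in experiment 1. Leaving out either of its libraries gave a log2 fold change of 1.59 (edgeR). These are not 2 separate checks. The library left behind sets only the mean of its own group, so both fits compare the experiments in the other groups alone. With the 8 labels summed, the family's log2 fold change of experiment 2 over 1 was 0.46 ± 0.23, with an adjusted p of 0.366.

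The way in which TRAV9-1 varied with treatment and genotype together is given without a test, because it was already known from these libraries when the family was chosen. In experiment 2 it made up 0.254% of clonotypes in KO with anti-4-1BB, 0.320% in WT with anti-4-1BB, 0.482% in KO with IgG and 0.246% in WT with IgG. The experiment 1 shares were 0.13% in KO with anti-4-1BB, 0.330% in WT with anti-4-1BB, 0.217% in KO with IgG and 0.146% in WT with IgG. KO lay below WT with anti-4-1BB and above WT with IgG in both experiments, and the smallest of these shares stood for 3 clonotypes. TRAV9-4 ranged between 0.175% and 0.567% and TRAV9N-4 between 0.0867% and 0.524%, each with treatments and genotypes that overlap.

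TRAV9N-3 had too few clonotypes for the model, and its shares are given with no test since they were picked out after being seen. In experiment 2 it made up 0.170% in KO with anti-4-1BB, 0.0711% in WT with anti-4-1BB, 0.419% in KO with IgG and 0.191% in WT with IgG. Its shares in experiment 1 were 0.209% in KO with anti-4-1BB, 0.105% in WT with anti-4-1BB, 0.260% in KO with IgG and 0.175% in WT with IgG. Each KO library lay above its WT partner (means 0.264% in KO and 0.136% in WT) and each anti-4-1BB library below its IgG partner (means 0.139% with anti-4-1BB and 0.261% with IgG), while the ranges of both contrasts overlap. These shares stand for 2 to 20 clonotypes a library.

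The 5 common copies differed in mean TRAJ number. Their means followed their order on the chromosome, with TRAV9-1 and TRAV9N-4 not told apart by the test. TRAJ numbers run down along the locus, so a high number is a J segment on the V side. The mean TRAJ number of TRAV9-4 clonotypes, whose V lies 478 kb from the first TRAJ, was 37.95 ± 3.54 (SD, n = 8 libraries). It was 31.5 ± 1.93 for TRAV9-2 at 564 kb, 26.8 ± 1.62 for TRAV9-1 at 666 kb, 25.6 ± 4.88 for TRAV9N-4 at 860 kb and 18.9 ± 4.11 for TRAV9N-3 at 923 kb. All other clonotypes averaged 30.4 ± 0.671. By the mean over clonotypes of all libraries pooled, TRAV9-4 (37.8) ranked 11th from the V side among 77 TRAV labels with 50 or more clonotypes, and TRAV9N-3 (20.8) 76th. Pooled medians gave another picture of TRAV9-1. They were 39.5 for TRAV9-4, 31 for TRAV9-2, 31 for TRAV9-1, 24 for TRAV9N-4 and 17 for TRAV9N-3. The share of clonotypes above TRAJ30 was 55.2% for TRAV9-2, 51.1% for TRAV9-1 and 35.5% for TRAV9N-4. Medians were not tested.

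**Figure D2:**
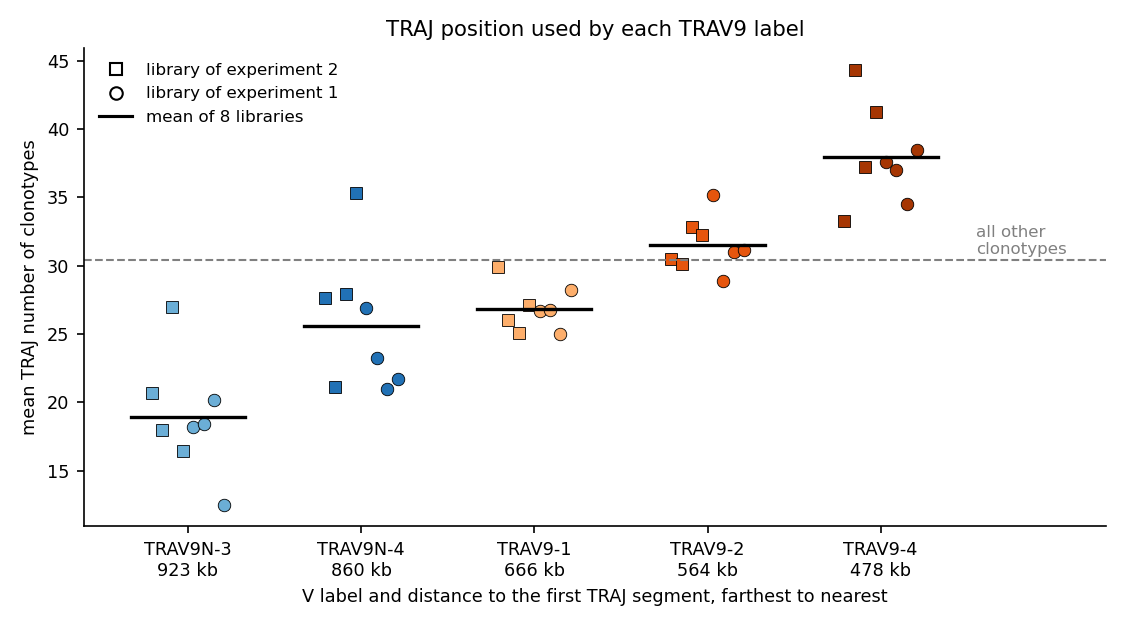
Mean TRAJ number of the clonotypes of each V label (points: 1 library each, squares experiment 2, circles experiment 1; bars: mean of 8 libraries), with labels ordered by distance to the first TRAJ segment. The means go up from 18.9 for the farthest of the 5 copies to 37.95 for the nearest, and the dashed line at 30.4 is the mean of all other clonotypes.

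TRAV9-4 lay above TRAV9-2 in 8 of 8 libraries, by 6.47 ± 4.05 TRAJ numbers (exact sign-flip permutation test over libraries, two-sided, p = 0.0078, the smallest possible; adjusted p = 0.0146 over 15 such tests). TRAV9-2 lay above TRAV9-1 in 8 of 8, by 4.65 ± 2.73 (same test, exact adjusted p = 0.0146). TRAV9N-4 lay above TRAV9N-3 in 8 of 8, by 6.68 ± 5.87 (exact adjusted p = 0.0146). Of the 10 pairs of copies, 9 passed, with adjusted p between 0.0146 and 0.0320 (exact permutation tests). The exception was TRAV9-1 minus TRAV9N-4, at 1.24 ± 4.81 and above 0 in 5 of 8 libraries (exact permutation test, p = 0.484). TRAV9-2 minus TRAV9N-4 was the weakest call, and it was lost on leaving out any 1 of 6 libraries (exact permutation test, adjusted p up to 0.0639). Within experiments the difference of TRAV9-4 and TRAV9-2 was 7.60 ± 5.17 in experiment 2 and 5.33 ± 2.83 in experiment 1 (SD, n = 4 libraries each).

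The rare copies, with few clonotypes, did not follow the order. TRAV9D-1, the farthest label at 1362 kb, had a mean TRAJ number of 28.2 over 25 clonotypes, TRAV9N-2 at 952 kb had 29.8 over 12, and TRAV9D-4 at 1171 kb had 32.3 over 4. The correlation of distance and mean TRAJ number over the 5 common copies was r = -0.93, given as a description of 5 points that share libraries. As a whole the family averaged 29.3 ± 2.10 against 30.4 ± 0.671 in all other clonotypes, a difference of -1.11 ± 1.50 that was below 0 in 7 of 8 libraries (exact sign-flip permutation test, adjusted p = 0.0992). It was -0.118 in experiment 2 and -2.10 in experiment 1, and with WT IgG of experiment 2, the 1 library above 0, left out, the exact permutation test gave an adjusted p of 0.0234.

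TRAJ partners of the family were compared with those of all other clonotypes inside each library. Of 65 TRAJ and TRBV segments tested, 2 (3.08%) were called, both TRAJ: TRAJ31 was used more often and TRAJ53 was not found. TRAJ31 was joined in 60 of 559 TRAV9 clonotypes (10.7%, 95% interval 8.29% to 13.6%), against 6.57% of the others (6.29% to 6.86%). In experiment 2 its share among TRAV9 clonotypes was 16.4% in KO with anti-4-1BB, 15.4% in WT with anti-4-1BB, 8.59% in KO with IgG and 9.86% in WT with IgG. In experiment 1 it was 19.4%, 10.7%, 7.14% and 0% of 36 clonotypes. The share among other clonotypes lay between 6.06% and 7.46% in every library, so TRAV9 was above it in 6 of 8.

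The log2 fold change of TRAJ31 was 0.72 ± 0.21 (SE), with an adjusted p of 0.0213 by edgeR's quasi-likelihood test. Among the copies TRAV9-1 stood highest: 23 of its 88 clonotypes (26.1%) used TRAJ31, the top share among 77 TRAV labels, beside 9.35% for TRAV9N-4, 8.97% for TRAV9-2, 8.47% for TRAV9-4 and 5% for TRAV9N-3. The TRAV9-1 share is pooled over libraries and was uneven among them. In experiment 2 it was 1 of 9 clonotypes in KO and 5 of 9 in WT with anti-4-1BB. With IgG it was 5 of 23 in KO and 1 of 9 in WT there. In experiment 1 it was 2 of 3 in KO and 8 of 25 in WT with anti-4-1BB. With IgG it was 1 of 5 in KO and 0 of 5 in WT there. Without TRAV9-1 the log2 fold change of TRAJ31 was 0.27 ± 0.26 with an adjusted p of 0.761 (edgeR). The call was also lost with TMM factors (0.37 ± 0.23, adjusted p = 0.372), with DESeq2 (0.17 ± 0.32, adjusted p = 0.713), with cells counted (adjusted p = 0.474), without the library term (adjusted p = 0.0663) and without any 1 of the 4 anti-4-1BB libraries or the KO IgG library of experiment 1 (up to 0.257). Both other scalings shift all partners downward. The median over the 65 segments was -0.07 as tested, -0.36 with TMM and -0.49 with DESeq2. Relative to it TRAJ31 stood at 0.79, 0.73 and 0.66. TRAJ34 and TRAJ12, which were not called, stood about as high: 0.74, 0.71 and 0.69, and 0.70, 0.67 and 0.64.

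TRAJ53, a segment on the V side of the cluster, was found in 0 of 559 TRAV9 clonotypes, which allows a share of up to 0.537%. It made up 1.35% of all other clonotypes (403 of 29930) and between 1.07% and 1.73% of them in each library. TRAV9 was therefore at least 2.51-fold lower, with the bound at 3 counts over all libraries (adjusted p = 0.0131 by edgeR's quasi-likelihood test). About 7.53 clonotypes would be TRAJ53 at the others' share. Over every alpha chain, 2 of 617 TRAV9 receptors carried TRAJ53, both on a second chain, and the edgeR call was then lost (adjusted p = 0.201). In experiment 1, leaving out WT with anti-4-1BB (edgeR adjusted p = 0.140) or KO with IgG (0.0542) also ended it.

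**Figure D3:**
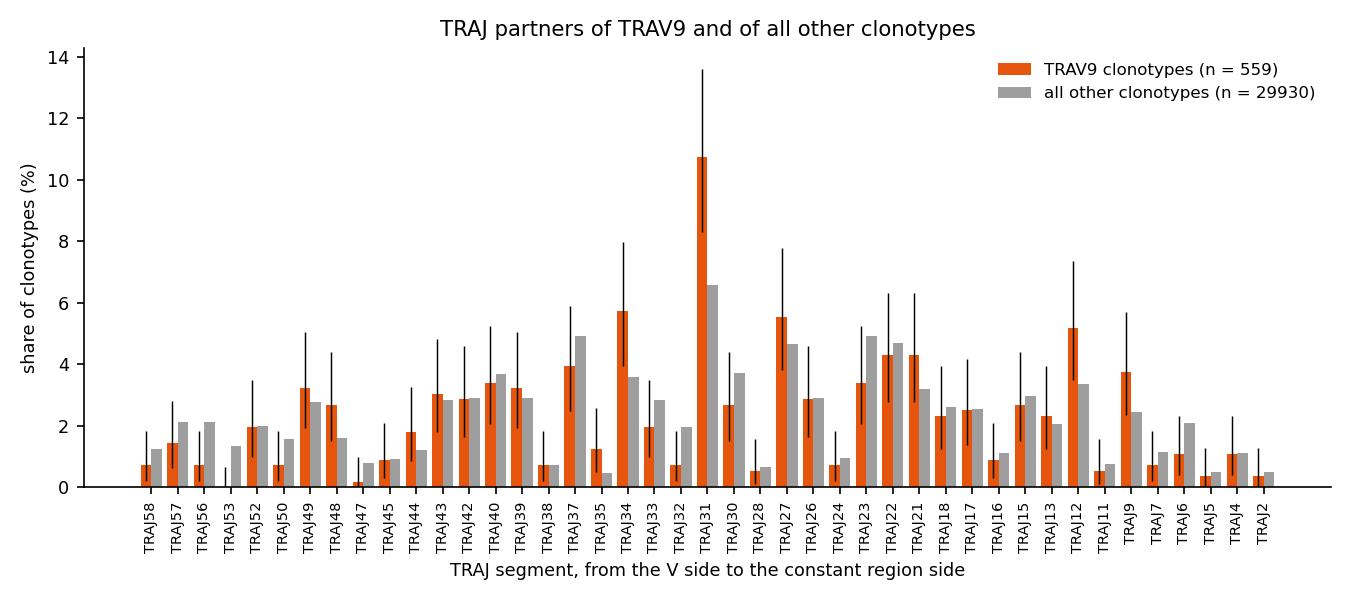
Share of clonotypes (%) joined to each TRAJ segment, for TRAV9 clonotypes (orange, left bar, with 95% Clopper-Pearson intervals) and all other clonotypes (grey, right bar), from the V side to the constant region side. TRAJ31 stands at 10.7% against 6.57%, and TRAJ53 at 0% against 1.35%.

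Other TRAJ shares did not pass. TRAJ34 made up 5.72% of TRAV9 clonotypes and 3.59% of others (log2 fold change 0.67 ± 0.29, adjusted p = 0.219 by edgeR's test). TRAJ12 made up 5.19% and 3.36%, with TRAV9 higher in 7 of 8 libraries (0.63 ± 0.30, adjusted p = 0.289 by edgeR's test), and TRAJ9 3.76% and 2.44%, also higher in 7 of 8. TRAJ35 had 7 TRAV9 clonotypes, 1.25% against 0.458%. TRAJ56 had 0.716% against 2.12%, and TRAJ32 0.716% against 1.97%, each with 4 TRAV9 clonotypes, while TRAJ47 had 1. TRAJ48, at a log2 fold change of 0.74 ± 0.42, had an adjusted p of 0.389 (edgeR). Of 43 TRAJ segments, 7 had an unadjusted p under 0.05 by edgeR and 9 by DESeq2, which called 1. The leading TRAJ differed among copies, which was not tested. TRAJ34 led for TRAV9-2 with 15 of 145 clonotypes (10.3%), beside 13 with TRAJ31, and was also joined in 9 of 118 TRAV9-4 clonotypes. For TRAV9N-3, TRAJ9 (11 of 60 clonotypes, 18.3%) and TRAJ12 (8 of 60, 13.3%) led. Among the most used partners were also TRAJ27 at 5.55% against 4.64%, TRAJ21 at 4.29% against 3.19% and TRAJ22 at 4.29% against 4.68%.

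No beta chain partner passed the test. By edgeR 0 of 22 TRBV segments were called and 1 had an unadjusted p under 0.05; by DESeq2 0 were called and 2 had one. The most used were the label that joins TRBV12-2 and TRBV13-2 and TRBV3, 67 clonotypes each (11.99%), against 12.5% and 10.4% of others. TRBV31 followed with 7.51% against 7.78%. TRBV16 had 6.80% against 5.14%, and TRBV10 6.80% against 4.67%, with TRAV9 higher in 7 of 8 libraries (log2 fold change 0.56 ± 0.30, adjusted p = 0.389 by edgeR's test). TRBV13-3 was the segment with the smallest p: 19 TRAV9 clonotypes, 3.40% against 6.59% of others (-0.92 ± 0.35, adjusted p = 0.182 by edgeR's test). The other TRBV segments with the smallest p, TRBV12-1, TRBV13-1, TRBV15, TRBV19, TRBV29, TRBV30 and TRBV12-2, had adjusted p between 0.511 and 0.775. Among copies, TRBV16 was the leading partner of TRAV9N-3 (18.3% of its 60 clonotypes), TRBV3 that of TRAV9-4 (16.9%) and TRAV9N-4 (15.9%), and TRBV12-2 with TRBV13-2 that of TRAV9-2 (15.2%).

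TRAV9 chains were read with fewer molecules than other alpha chains and were more often the second chain of a cell. In experiment 2 the share of TRAV9 chains that were listed second was 6.98% in KO with anti-4-1BB, 6.67% in WT with anti-4-1BB, 9.68% in KO with IgG and 8.82% in WT with IgG. In experiment 1 it was 8.57%, 11.1%, 9.68% and 7.32%. For all other TRA chains the same shares were 3.63%, 4.13%, 5.54% and 4.82% in experiment 2 and 6.25%, 8.18%, 5.69% and 4.90% in experiment 1. TRAV9 was higher in every library, by 3.20 ± 0.765 percentage points (SD, n = 8; exact sign-flip permutation test, p = 0.0078, adjusted p = 0.0146). The difference was 3.51 ± 0.732 points in experiment 2 and 2.90 ± 0.763 in experiment 1.

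**Figure D4:**
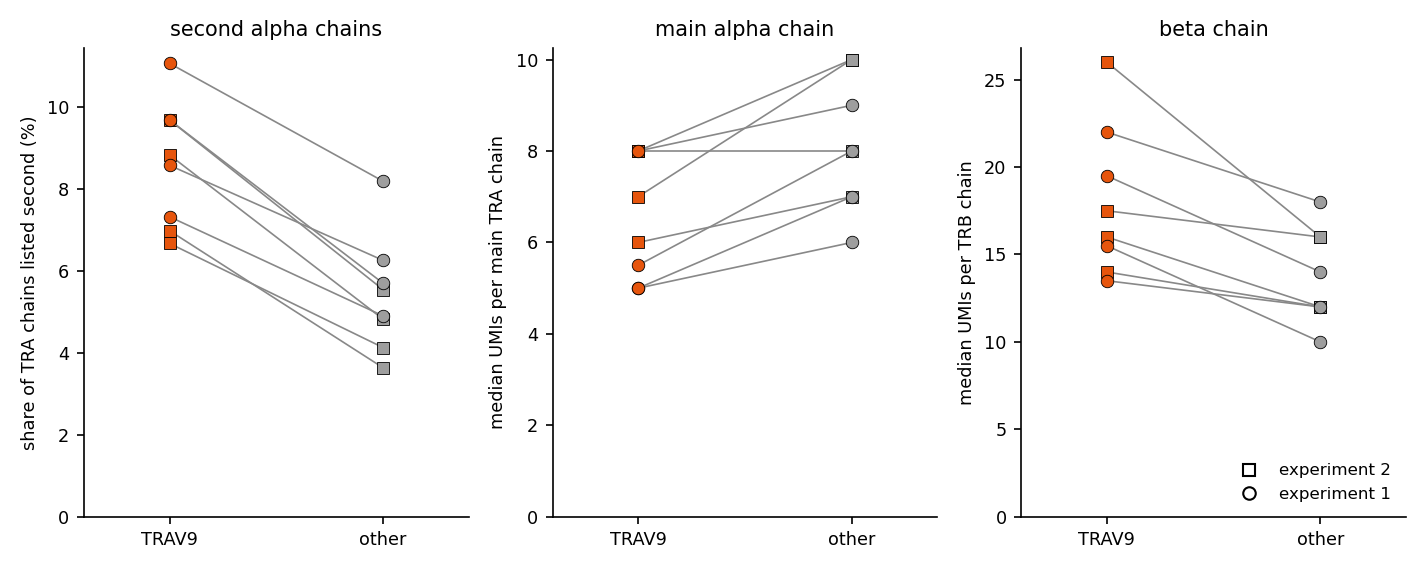
Share of TRA chains listed second (%), median UMIs per main TRA chain and median UMIs per TRB chain in TRAV9 cells (left) and all other cells (right), with 1 line for each library. TRAV9 is higher in the first panel in 8 of 8 libraries, lower in the second in 7 with 1 tie, and higher in the third in 8 of 8.

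The median main TRAV9 chain carried 6.56 ± 1.35 UMIs and the median other main chain 8.13 ± 1.46 (means of 8 library medians ± SD), a difference of -1.56 ± 0.980 with TRAV9 lower in 7 libraries and equal in 1 (exact sign-flip permutation test, p = 0.0156, adjusted p = 0.0234). In cells with 1 alpha chain only, the difference was -1.44 ± 0.904 (exact adjusted p = 0.0234). The beta chain went the other way: its median was 18 ± 4.29 UMIs in TRAV9 cells and 13.8 ± 2.71 in other cells, higher in 8 of 8 libraries, given with no test since it was looked at after the alpha chain. Among the 2320 cells with 2 alpha chains, TRAV9 was the second chain in 67 and the main one in 21 (76.1% second). Of the cells with a TRAV9 main chain 3.15% had a second alpha, against 6.14% of other cells. The order of the 2 alpha chains rests on their UMIs, and the part that UMIs per chain play in the share of second chains was not tested. Cells with 2 alpha chains can include droplets that held 2 cells, which was not tested either. With libraries pooled, the median main chain had 9 UMIs in TRAV9-1, 7.5 in TRAV9N-4, 7 in TRAV9-2, 7 in TRAV9N-3 and 6 in TRAV9-4. Other cells had 8. Second chains were 7 of 111 chains in TRAV9-1, 10 of 138 in TRAV9N-4 and 6 of 71 in TRAV9N-3. They were 21 of 214 in TRAV9-2 and 18 of 151 in TRAV9-4. The copies were not tested against each other.

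CDR3 alpha length did not differ beyond the spread of libraries, 13.43 ± 0.0571 amino acids in TRAV9 clonotypes and 13.42 ± 0.0654 in others (SD, n = 8; exact sign-flip permutation test, p = 0.617). With anti-4-1BB the TRAV9 mean was 13.46 and with IgG 13.40, longer in 4 of 4 pairs by 0.0596 ± 0.0494 (exact permutation test, p = 0.13, the smallest possible; adjusted p = 0.875 over 21 tests). KO minus WT was 0.0082 ± 0.0733 (exact permutation test, p = 0.875).

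Clonal expansion of TRAV9 cells was lower in KO than in WT in each of the 4 pairs, in a design too small for the test to pass. A cell counted as expanded when its clonotype held at least 1 further cell, and the share is the one expected with each library thinned to the 2656 cells of the smallest. In experiment 2 it was 18.9% in KO and 50.5% in WT with anti-4-1BB, and 8.95% in KO and 28.2% in WT with IgG. In experiment 1 it was 6.25% in KO and 13.2% in WT with anti-4-1BB, and 0% in KO and 6.89% in WT with IgG. These shares rest on 28 to 185 TRAV9 cells per library, with 28 cells in KO with IgG of experiment 1 (0 expanded, which allows up to 10.7%). The ranges of KO and WT overlap, with experiment 1 low in both. Few clonotypes of 2 or more cells carry these shares. In experiment 2 they were 5 of 67 in KO and 8 of 39 in WT with anti-4-1BB. With IgG they were 6 of 128 in KO and 8 of 71 in WT there. In experiment 1 they were 1 of 31 in KO and 8 of 159 in WT with anti-4-1BB. With IgG they were 0 of 28 in KO and 2 of 36 in WT there.

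KO averaged 8.51% and WT 24.7%, a difference of -16.2 ± 11.9 points (SD, n = 4 pairs, KO higher in 0; exact permutation test, p = 0.13, the smallest possible; adjusted p = 0.875). The pair difference was -31.7 with anti-4-1BB and -19.2 with IgG in experiment 2, and -6.91 and -6.89 in experiment 1. For all other cells the same difference was -0.419 ± 6.73 points, with KO higher in 3 of 4. Taking it off leaves -15.7 ± 5.60, with KO higher in 0 of 4 (exact permutation test, p = 0.13). Without the largest TRAV9 clonotype of each library the difference was -13.3 ± 9.65, and as a share of clonotypes with 2 or more cells -6.75 ± 4.68, again with KO higher in 0 of 4. With anti-4-1BB the expanded share averaged 22.2% and with IgG 11.0%, higher in 4 of 4 pairs by 11.2 ± 7.64 points (exact permutation test, p = 0.13), against 4.08 ± 13.3 in other cells; without the largest clonotypes it was 6.85 ± 6.98, higher in 3 of 4. Depth moved with treatment: the median main alpha chain of other cells had 10 UMIs in KO and 10 in WT with anti-4-1BB in experiment 2 and 8 and 9 in experiment 1, against 8 and 7 with IgG in experiment 2 and 6 and 7 in experiment 1. Its part in the expanded share was not tested.

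**Figure D5:**
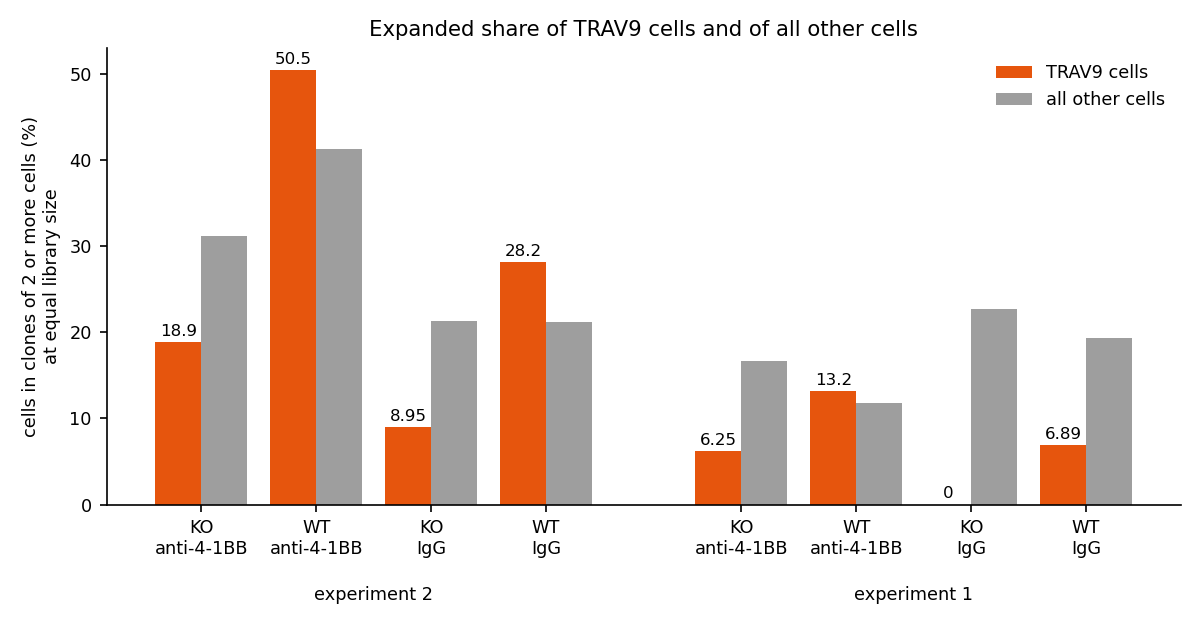
Expanded share (%) at equal library size of TRAV9 cells (orange, left bar, value printed) and of all other cells (grey, right bar) in each library. TRAV9 cells of KO libraries lie below those of the matching WT library in all 4 pairs, between 0% and 18.9% against 6.89% and 50.5%.

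Taken library by library without thinning, TRAV9 cells were in expanded clones less often than other cells in 6 of 8 libraries, 19.8 ± 17.6% against 27.9 ± 9.47%, a difference of -8.11 ± 11.1 points (exact sign-flip permutation test, p = 0.0859, adjusted p = 0.0992). The 2 exceptions were the WT libraries of experiment 2. The experiments gave -3.81 ± 13.3 points (experiment 2) and -12.4 ± 7.91 points (experiment 1). Of TRAV9 clonotypes, 38 of 559 (6.80%) had 2 or more cells, against 10.2% of others.

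Only 2 TRAV9 clonotypes reached 10 cells, both in WT with anti-4-1BB. The larger, 15 of 4439 cells in experiment 2, joined TRAV9N-4 to TRAJ22 with TRBV23 and TRBJ2-7. The other, 10 of 8871 cells in experiment 1, joined TRAV9-2 to TRAJ37 with TRBV31 and TRBJ2-7. Their CDR3 nucleotides are given because they identify the clones.
15-cell clone, alpha: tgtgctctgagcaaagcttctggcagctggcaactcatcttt
15-cell clone, beta: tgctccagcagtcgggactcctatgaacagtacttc
10-cell clone, alpha: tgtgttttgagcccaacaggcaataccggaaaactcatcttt
10-cell clone, beta: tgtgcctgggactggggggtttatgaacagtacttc
In the remaining libraries of experiment 2 the largest TRAV9 clonotype had 7 cells in KO with anti-4-1BB (TRAV9-2 with TRAJ31, TRBV13-3), 6 in KO with IgG and 9 in WT with IgG (both TRAV9-2 with TRAJ30, TRBV20). In experiment 1 it had 2 cells in KO with anti-4-1BB and 2 in WT with IgG, and in KO with IgG all 28 TRAV9 clonotypes were single cells. Clonotypes of 10 or more cells made up 0.358% of TRAV9 clonotypes and 0.394% of the others.

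The largest clones of both IgG libraries in experiment 2 resembled each other. Both joined TRAV9-2 to TRAJ30 and paired with TRBV20 and TRBJ2-7, with a CDR3 of 12 amino acids in each chain, 1 amino acid apart in alpha and 2 in beta. The pair was picked after its sequences were seen, and capitals mark the bases at which the 2 clones differ.
KO IgG experiment 2, 6 cells, alpha: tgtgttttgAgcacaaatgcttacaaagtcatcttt
WT IgG experiment 2, 9 cells, alpha: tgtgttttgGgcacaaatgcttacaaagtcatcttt
KO IgG experiment 2, 6 cells, beta: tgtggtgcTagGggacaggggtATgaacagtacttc
WT IgG experiment 2, 9 cells, beta: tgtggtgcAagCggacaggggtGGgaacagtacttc
The differing bases lie in both chains. No TRAV9 receptor was the same in nucleotides in 2 libraries (0), although 866 cell barcodes of 37225 occurred in more than 1 library, 24 TRAV9 cells among them.

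Some TRAV9 alpha chains recurred across libraries as amino acid sequences. Of 504 distinct alpha chains (TRAJ and CDR3 amino acids), 31 (6.15%) were found in 2 or more libraries, 3 in 3 or more, and 1 in 4. The recurrent ones usually met different beta chains: 28 of the 31 were paired with more than 1 TRBV, and 10 were built on more than 1 copy. Counted per V label, labels with 50 to 200 clonotypes had a median of 3.37% of alpha chains in 2 or more libraries outside the family (25 labels), and within it TRAV9-4 had 7.48%, TRAV9-1 6.17%, TRAV9N-3 5.56%, TRAV9-2 5.43% and TRAV9N-4 0%. Over all other alpha chains pooled, which join many V labels, 3728 of 18349 (20.3%) were found in 2 or more libraries. The labels differ in their number of clonotypes, and no test was made.

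The alpha chain found in 4 libraries joined TRAV9N-3 to TRAJ12, with 5 clonotypes of 1 cell each: 1 in KO with IgG of experiment 2, and in experiment 1, 1 in KO with anti-4-1BB, 2 in KO with IgG and 1 in WT with IgG. Of these, 3 paired with TRBV16 and 2 with TRBV1. A TRAV9-2 alpha chain with the same TRAJ12 stretch was found in KO with IgG and in WT with IgG of experiment 2, both times with TRBV16. The receptors were put together after their sequences were seen. The 4 nucleotide versions are shown with capitals where they differ.
TRAV9N-3, version 1: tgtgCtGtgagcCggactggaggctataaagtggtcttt
TRAV9N-3, version 2: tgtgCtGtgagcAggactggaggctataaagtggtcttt
TRAV9-2, version 1: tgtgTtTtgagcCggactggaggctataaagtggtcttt
TRAV9-2, version 2: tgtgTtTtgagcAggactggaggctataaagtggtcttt
The first bases that differ come from the V segment and the last from the codon at the junction, which reads as the same amino acid in both versions. Over all TRAV labels 32 clonotypes shared this TRAJ12 stretch, 14 of them TRAV7D-2 and 7 TRAV9. Of the 32, 15 used TRBV16, and 5 of those 15 were TRAV9.

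A further set, also chosen after its sequences were seen, joined TRAV9-1 to TRAJ21 and paired with TRBV20 in 3 libraries of experiment 2. Its alpha chains were at most 1 amino acid apart, and 2 of its beta chains used TRBJ1-1 and differed by 1 amino acid. Capitals mark differing bases within the alpha chains and within that pair of beta chains.
KO anti-4-1BB, 2 cells, alpha: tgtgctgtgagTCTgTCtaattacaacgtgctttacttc
KO IgG, 1 cell, alpha: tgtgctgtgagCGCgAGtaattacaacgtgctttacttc
WT IgG, 1 cell, alpha: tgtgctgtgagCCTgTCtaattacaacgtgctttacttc
KO anti-4-1BB, 2 cells, beta: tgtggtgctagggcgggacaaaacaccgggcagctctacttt
KO IgG, 1 cell, beta: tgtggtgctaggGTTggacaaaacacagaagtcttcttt
WT IgG, 1 cell, beta: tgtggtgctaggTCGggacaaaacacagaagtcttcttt
The alpha chains of the KO anti-4-1BB and WT IgG cells differ in bases and give 1 amino acid sequence. Among the alpha chains found in most libraries, 1 with TRAJ21 had 3 clonotypes in 3 libraries, on TRAV9-1 and TRAV9-4. Of its clonotypes, 2 paired with TRBV20 and 1 with TRBV14. Other alpha chains found in several libraries used TRAJ18 on 3 copies in 3 libraries, TRAJ48 on TRAV9-2 (5 clonotypes, 4 of them with TRBV12-2 and TRBV13-2), TRAJ34 on TRAV9-1, TRAV9-2 or TRAV9-4, TRAJ37 on 3 copies, and TRAJ43 on TRAV9-4.

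The V labels most alike to the family were sought by 2 measures, as descriptions. By log2 share over the 8 libraries, TRAV14-2 was closest (Pearson r = 0.86), followed by TRAV17 (0.69), TRAV19 (0.69), TRAV7-4 (0.62) and TRAV14D-3-DV8 (0.58). By share of 43 TRAJ segments, TRAV10 was closest (r = 0.85), followed by TRAV14N-3 (0.83), TRAV6N-5 (0.82), TRAV6D-6 (0.82) and TRAV7-3 (0.82). The points share libraries and depth, and no p is given. The 8 libraries held 80551 to 445027 TCR UMIs, 2656 to 8871 kept cells and 2307 to 7585 clonotypes, so a copy with 0 clonotypes could still hold up to 0.130% of the smallest library.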

How the data were processed

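Receptors were read by 10x 5′ single-cell V(D)J sequencing in 8 libraries. Per the submitters' processing notes, reads were handled with bcl2fastq 2.20.0, Cell Ranger 7.1.0 and Seurat on GRCm38; the V(D)J reference is not given in the sources used here. The authors deposited 1 contig table per library, with UMI and read counts per contig and, per the file headers, flags for cell, confidence, completeness and productivity, which all 123611 contigs passed. The 8 paired gene expression libraries were not analysed here.

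Members and gene lists were chosen with earlier results of these data known. Of 74368 barcodes, 38108 cells with 1 TRB and 1 or 2 TRA were kept, and 128 of 861 TRAV9 contigs fell outside them (101 in cells with 2 or more TRB, 27 without TRB). No doublet caller was run: barcodes with more than 1 TRB or more than 2 TRA were dropped, and doublets that pass this rule remain. Clonotype counts of V and J segments with at least 10 clonotypes in 2 or more libraries were tested with edgeR 4.0.16 (quasi-likelihood, R 4.3.3; spread pooled over segments of a type) and Benjamini-Hochberg adjustment over 153 segments, or over 65 partners with the library as a term. DESeq2 1.42.0 was an alternative. Single values were compared with exact two-sided permutation tests inside strata of the other factors, or by sign flips over libraries (Python 3.11.15, scipy 1.17.1). Partners were named by smallest p, up to 10 of each type, plus the 5 most used; clones and alpha chains by size and number of libraries. Experiments are labelled batches, so equal replicate numbers pair libraries. The correlation of paired deviations was -0.131 to 0.402 over 153 segments. The main edgeR fits for treatment and genotype used group means without an experiment term, so they did not use this pairing. The edgeR fit between experiments had group means and an experiment term. On simulated data with log2 changes of 2, the tests recovered 16 of 16 changed segments for treatment (150 tested, 1 false call), 16 of 16 for genotype (154 tested, 0 false) and 14 of 14 for experiment (150 tested, 3 false), and 6 of 6 partners (65 tested, 2 false). The simulated counts had 1 fixed spread. Changes were placed in rarer segments for the comparisons between libraries and in commoner ones for partners. Smaller changes, such as the log2 fold change of 0.72 of TRAJ31, were not simulated, so the recovery does not speak to them. Counts of UMIs, between 80551 and 445027 per library, limit precision, and intervals (95% Clopper-Pearson) cover counting error only.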

Additional observations from a re-analysis of the deposited data

Results flagged for a closer look

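The family's treatment difference had opposite signs in the 2 experiments, in both genotypes of each. Anti-4-1BB minus IgG was -0.672 percentage points in experiment 2 and 0.564 in experiment 1, a gap of -1.24. For the mean TRAJ number the same difference was -1.61 in experiment 2 and 2.35 in experiment 1, a gap of -3.95.

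KO minus WT also had opposite signs between experiments for 3 values. It was 0.183 percentage points in experiment 2 and -0.150 in experiment 1 for the TRAV9N-4 share, a gap of 0.333. For the mean TRAJ number it was -1.93 in experiment 2 and 0.891 in experiment 1, a gap of -2.83. For CDR3 alpha length it was -0.0480 amino acids in experiment 2 and 0.0644 in experiment 1, a gap of -0.112.

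For the TRAV9-1 share, anti-4-1BB minus IgG was -0.159 percentage points in KO and 0.129 in WT, a gap of -0.288. Seen the other way, KO minus WT stood at -0.135 under anti-4-1BB and at 0.153 under IgG, and the IgG value exceeds it by 0.288. None of these 7 gaps was tested. Each stands here because every pair on one side differs in sign from every pair on the other. They were picked by that pattern from the shares and values compared above. How many would show it by chance was not worked out. Both TRAV9-1 gaps are the same contrast, which was already known when the family was chosen.

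In cells left out for having no TRB or more than 1, 128 TRAV9 contigs were present, a signal outside the receptors compared above.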

How the results depend on the processing

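In all, 55 values were recomputed under 672 alternatives, 440 of which left out a library. Of the alternatives, 525 kept direction and side of the threshold. With direction kept, 19 lost a call and 4 gained one. A further 85 changed sign and 39 counts moved by over 1.5 times. The causes were not tested, beyond the smaller number of libraries when one was left out. Alternatives that removed TRAV9-1 or the largest clonotypes, summed the labels, set off other cells, counted expanded clonotypes or took cells with 1 alpha chain were chosen after seeing the data. For treatment, where 1 segment was called, 2 were called with TMM factors, with every TRA chain, with the replicate block and with labels summed, and 0 with DESeq2. For genotype, 0 in place of 1 were called with DESeq2 and with cells counted, and 1 with the replicate block. Between experiments, 0 in place of 1 were called with DESeq2 and without the replicate block, 3 with chains of at least 3 UMIs and 4 with every TRA chain. Of TRAJ partners, 1 in place of 2 was called with TMM factors, DESeq2, cells, every TRA chain, no replicate block, or no TRAV9-1. Leaving out a library gave 0 to 2 segments for treatment, 0 to 2 for genotype, 0 to 3 for experiment, and 0 to 2 TRAJ.

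The following values changed sign against those of the report. With cells counted, anti-4-1BB minus IgG was 0.0280 points for the family, 0.0420 for TRAV9-1 and -0.309 for the mean TRAJ number. With cells counted, KO minus WT was -0.122 points for the family, -0.0462 for TRAV9-1, -0.000207 for TRAV9-2, -0.0788 for TRAV9N-4 and 0.108 for the mean TRAJ number. The TRAV9-2 share difference for treatment was 0.0156 with at least 3 UMIs and 0.0298 with every TRA chain, and for genotype -0.00880 with every TRA chain. That of TRAV9N-4 for genotype was -0.00967 with at least 3 UMIs.

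On the log2 scale of edgeR, cells gave 0.16 for TRAV9-1 and treatment, and for genotype -0.13 for TRAV9-1 and -0.20 for TRAV9N-4. TRAV9-2 and treatment gave 0.0287 with TMM factors, 0.0285 with at least 3 UMIs, 0.0878 with every TRA chain and 0.11 with the replicate block, and genotype gave -0.0309 with the replicate block. Between experiments TRAV9-4 gave -0.0743 without the replicate block, and TRAV9N-4 gave 0.00675 with TMM factors, 0.0539 with DESeq2 and 0.0836 with cells. The replicate block changed no call on a TRAV9 label.

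Leaving out 1 library at a time, the log2 fold change for treatment ranged between -0.43 and 0.30 for TRAV9-1, -0.64 and 0.53 for TRAV9-2, and -0.00772 and 1.35 for TRAV9N-4. For genotype it ranged between -0.28 and 0.33 for TRAV9-1, -0.45 and 0.72 for TRAV9-2, -0.58 and 0.16 for TRAV9-4, and -0.84 and 0.51 for TRAV9N-4. Between experiments it ranged between -0.31 and 0.55 for TRAV9-4 and -0.66 and 0.41 for TRAV9N-4. The share difference for treatment ranged between -0.420 and 0.191 points for the family, -0.0817 and 0.0554 for TRAV9-1, -0.0956 and 0.0876 for TRAV9-2, and -0.0104 and 0.178 for TRAV9-4. That for genotype ranged between -0.0438 and 0.470 for the family, -0.0664 and 0.0802 for TRAV9-1, -0.0770 and 0.112 for TRAV9-2, and -0.0891 and 0.0804 for TRAV9N-4. That between experiments ranged between -0.0766 and 0.111 for TRAV9-4 and -0.139 and 0.0907 for TRAV9N-4. The mean TRAJ number ranged between -0.535 and 1.46 for treatment, and -1.24 and 0.379 for genotype. CDR3 length ranged between -0.0235 and 0.0319 for genotype and between -0.00335 and 0.0299 for TRAV9 minus others. The mean TRAJ number of TRAV9 minus others ranged between -1.50 and -0.785, and TRAV9-2 minus TRAV9N-4 between 5.31 and 7.17.

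The expanded share of TRAV9 minus other cells became -13.9 points (exact sign-flip permutation test, adjusted p = 0.0130) without the largest TRAV9 clonotype of each library, which removes clones on the TRAV9 side alone. Library depth limits single copies: of 28 to 159 TRAV9 clonotypes per library, a common copy had as few as 2 and TRAV9D-1, TRAV9N-2 and TRAV9D-4 had 0 in some libraries.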
